A study of Rattus norvegicus with 9 samples.

Results

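Angptl4, Pdk4, Ucp3, Plin5, Aqp7, Cd36, Fabp3 and Acsl1 are genes of lipid handling that are known as targets of the peroxisome proliferator-activated receptors (PPARs), and their transcript levels were followed in the rat tongue. The genes were selected on log2 values and group differences of these same arrays, in all 3 comparisons, so their levels and differences below are a description and were not tested as support. Each probe set whose only gene symbol was 1 of these 8 was taken, which gave 12 probe sets of 31042 and 8 genes of 14217. Another probe set that carries the symbols of both Cd36 and Cd36l1 was left out. Where a gene had more than 1 probe set, the one with the highest mean over all arrays stands for it, and the others are given beside it.

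Total RNA of tongue tissue from male Sprague Dawley rats was measured on 9 Affymetrix rat genome arrays, 3 in each of 3 groups. In the IL-1Ra intervention group (IL-1Ra), rats received the carcinogen 4-nitroquinoline oxide (4NQO) and the interleukin-1 receptor antagonist, which blocks the IL-1 receptor. In the 4NQO group, rats drank water with 0.002% 4NQO, which damages DNA and gives rise to dysplasia and carcinoma of the tongue. In the normal group, rats drank distilled water. By the labels, rats given 4NQO were killed once lesions could be seen, from week 14 on and at the latest in week 22. The methods of the study describe 14 weeks of 4NQO and then weekly injections under the mucosa of the tongue until week 22. These were of IL-1Ra in the one group and of saline in the 4NQO group, with no injection stated for normal rats. The labels instead give 22 weeks of 4NQO, so whether the injections overlapped with 4NQO is not settled here. Also unlike the labels, the methods have all rats of the injection experiment killed together after week 22 was complete. How far the lesions of the sampled tongues had gone is not stated in the sources used here, and a piece of tongue holds muscle, epithelium, vessels, fat and stroma in shares that can differ between pieces.

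PPARs are nuclear receptors that bind fatty acids and their derivatives, pair with the retinoid X receptor (RXR) and raise the transcription of genes that take up, store and burn fat. In skeletal muscle, which makes up much of the tongue, such genes respond to fasting and to circulating fatty acids. The pair of receptors binds a direct repeat of a short half-site with 1 base between the repeats. The RefSeq promoter table of rat build GRCr8, which covers 250 bases before and 50 bases after each gene start, matched 7 of the 8 genes. Both promoters that held the half-site AGGTCA are shown because they belong to genes with different patterns in the arrays, and Angptl4 is shown as the gene with the lowest value relative to normal in the 4NQO group. All are written 5′ to 3′ on the strand of the gene, and capitals mark the half-site found on either strand. The Ucp3 window is chr1:164227660-164227959 on the plus strand, the Plin5 window is chr9:1033235-1033534 on the minus strand and the Angptl4 window is chr7:15258632-15258931 on the minus strand.
Ucp3: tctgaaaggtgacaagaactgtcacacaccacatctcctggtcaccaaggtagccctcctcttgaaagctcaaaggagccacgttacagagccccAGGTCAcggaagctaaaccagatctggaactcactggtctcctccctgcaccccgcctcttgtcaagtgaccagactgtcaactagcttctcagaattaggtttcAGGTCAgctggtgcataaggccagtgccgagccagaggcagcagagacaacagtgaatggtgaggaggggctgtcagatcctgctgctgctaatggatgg
Plin5: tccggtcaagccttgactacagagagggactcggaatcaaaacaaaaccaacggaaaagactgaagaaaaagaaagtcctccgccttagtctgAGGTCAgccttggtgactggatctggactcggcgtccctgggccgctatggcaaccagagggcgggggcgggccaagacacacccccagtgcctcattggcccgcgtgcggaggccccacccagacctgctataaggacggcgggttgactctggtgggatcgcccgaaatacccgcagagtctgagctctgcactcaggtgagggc
Angptl4: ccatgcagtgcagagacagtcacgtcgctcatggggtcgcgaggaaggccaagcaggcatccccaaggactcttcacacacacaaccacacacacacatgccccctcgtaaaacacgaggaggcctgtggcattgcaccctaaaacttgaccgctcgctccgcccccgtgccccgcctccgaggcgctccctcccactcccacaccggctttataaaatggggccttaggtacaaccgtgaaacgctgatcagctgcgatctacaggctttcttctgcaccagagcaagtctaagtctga
The Ucp3 window held 2 half-sites, which began 155 and 50 bases before the gene start. The Plin5 window held 1, which began 157 bases before the start. The windows of Angptl4, Pdk4, Cd36, Fabp3 and Acsl1 held 0. Over the whole table, 16.2% of 33469 promoters held AGGTCA on at least 1 strand and 1.81% held 2 or more. The full repeat AGGTCANAGGTCA, which contains the half-site, was found in 0 of the 7 windows and in 0.0538% of all promoters. These matches describe letters in a short window and were not linked to the values below.

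Correlations between arrays ran from 0.967 to 0.995, and no array was a copy of another (0 identical pairs). Median levels lay between 5.23 and 5.27 log2 on every array, and lower quartiles lay between 3.60 and 3.78 log2. Separate animals were not named in the labels, so the spread between arrays may be partly technical, and no batch was given in the labels. Markers listed for skeletal muscle as a whole and markers of keratinocytes were both abundant, as the label tongue requires. The muscle list is called all-fibre below, but how evenly fibre types share its genes was not checked. The 10 all-fibre muscle markers summed to 61174 to 66970 intensity units in the IL-1Ra group, 64813 to 82768 in the 4NQO group and 69591 to 74530 in the normal group. The 9 measured keratinocyte markers summed to 48096 to 52435, 28254 to 55217 and 33879 to 45115 intensity units in the same order of groups.

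Angptl4 encodes a secreted protein that inhibits lipoprotein lipase, the enzyme that frees fatty acids from circulating lipoproteins. Its log2 intensity was 8.42, 7.01 and 6.45 on the IL-1Ra arrays, 7.31, 8.68 and 6.97 on the 4NQO arrays and 9.41, 9.73 and 9.48 on the normal arrays. Every 4NQO and every IL-1Ra array thus lay below every normal array, while the IL-1Ra and 4NQO arrays were interleaved. The group means were 7.29 ± 1.02 for IL-1Ra, 7.65 ± 0.91 for 4NQO and 9.54 ± 0.17 for normal (SD, n = 3 each). The 4NQO mean was 3.7-fold lower than the normal mean, a difference of -1.89 log2 with a 95% interval of -3.02 to -0.75. Both groups that received 4NQO varied far more between arrays than the normal group did. The IL-1Ra mean differed from the 4NQO mean by -0.36 log2 (95% interval -1.49 to 0.78) and from the normal mean by -2.25 log2. In bulk tissue, fewer cells of a type and less RNA per cell cannot be told apart, which holds for every gene here.

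Cd36 encodes a membrane receptor that takes up long-chain fatty acids in muscle, fat and capillary endothelium. Its level was 9.24, 9.01 and 8.85 on the IL-1Ra arrays, 9.80, 10.53 and 9.69 on the 4NQO arrays and 10.25, 10.26 and 10.25 on the normal arrays. The IL-1Ra arrays were all below the arrays of the other groups, whereas 1 of the 4NQO arrays was above all normal arrays and the other two were below them. The IL-1Ra mean of 9.04 ± 0.20 was 1.96-fold lower than the 4NQO mean of 10.01 ± 0.46 and 2.33-fold lower than the normal mean of 10.25 (SD, n = 3 each). The 4NQO mean differed from the normal mean by only -0.25 log2, with a 95% interval of -0.70 to 0.20. Among the 8 genes, Cd36 had the smallest difference between 4NQO and normal.

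Aqp7 encodes an aquaglyceroporin, a channel through which glycerol leaves or enters fat and muscle cells. Its level was 5.45, 4.97 and 5.56 on the IL-1Ra arrays, 6.52, 7.22 and 5.89 on the 4NQO arrays and 7.71, 8.17 and 8.09 on the normal arrays. The 3 groups did not overlap, and they lay in the order IL-1Ra, 4NQO, normal. The 4NQO mean was 2.72-fold lower than the normal mean (-1.44 log2, 95% interval -2.10 to -0.79). The IL-1Ra mean of 5.33 ± 0.31 was 2.33-fold lower than the 4NQO mean of 6.54 ± 0.66 and 6.33-fold lower than the normal mean of 7.99 ± 0.24 (SD, n = 3 each). With -2.66 log2, Aqp7 had the largest difference between the IL-1Ra and normal groups among the 8 genes.

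Fabp3, the fatty acid binding protein of heart and muscle, carries fatty acids through the cytosol. Its level was 11.93, 12.17 and 11.87 on the IL-1Ra arrays, 12.60, 12.81 and 12.41 on the 4NQO arrays and 13.13, 13.27 and 13.15 on the normal arrays. The arrays again fell into 3 ranges without overlap, and they varied little within a group. The IL-1Ra mean of 11.99 ± 0.16 was 1.53-fold lower than the 4NQO mean of 12.61 ± 0.20 and 2.29-fold lower than the normal mean of 13.19 ± 0.07 (SD, n = 3 each). The 4NQO mean was 1.49-fold lower than the normal mean. Fabp3 was the only one of the 8 genes that passed the adjusted threshold in all 3 comparisons.

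Acsl1 encodes a long-chain acyl-CoA synthetase, which activates fatty acids for oxidation or storage. The level of its brightest probe set was 10.80, 10.51 and 10.68 on the IL-1Ra arrays, 11.19, 11.36 and 10.91 on the 4NQO arrays and 11.51, 11.81 and 11.58 on the normal arrays. These ranges did not overlap either, but neighbouring groups were separated by small gaps. The differences were -0.49 log2 between IL-1Ra and 4NQO, -0.97 log2 between IL-1Ra and normal and -0.48 log2 between 4NQO and normal. A second Acsl1 probe set gave differences of -0.66, -0.86 and -0.20 log2 in the same order, and here the 4NQO and normal arrays overlapped. This probe set passed the adjusted threshold as lower between IL-1Ra and 4NQO, which the brightest one did not, so whether Acsl1 counts among the genes that passed there depends on the probe set. The pair of probe sets therefore placed the step of Acsl1 differently between the groups. One more, with means of 3.0, 3.24 and 3.39 log2 in the IL-1Ra, 4NQO and normal groups, lay below the lower quartile of most arrays and was not read.

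Plin5 encodes perilipin 5, a coat protein of lipid droplets that lies beside mitochondria in muscle. Its level was 8.07, 6.90 and 7.47 on the IL-1Ra arrays, 8.36, 9.30 and 8.34 on the 4NQO arrays and 9.83, 9.45 and 9.44 on the normal arrays. The highest 4NQO array came close to the lowest normal array, yet no groups overlapped. The IL-1Ra mean of 7.48 ± 0.58 was 2.27-fold lower than the 4NQO mean of 8.66 ± 0.55 and 4.27-fold lower than the normal mean of 9.57 ± 0.22 (SD, n = 3 each). The 4NQO mean differed from the normal mean by -0.91 log2 (95% interval -1.61 to -0.21).

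Pdk4 encodes a kinase that switches off the pyruvate dehydrogenase complex and so spares glucose when fat is burned. Its brightest probe set read 12.30, 11.02 and 11.06 log2 on the IL-1Ra arrays, 11.78, 12.83 and 11.35 on the 4NQO arrays and 12.73, 12.95 and 12.76 on the normal arrays. The IL-1Ra arrays were all below the normal arrays, but the second 4NQO array lay within the normal range. The differences were -0.52 log2 between IL-1Ra and 4NQO, -1.35 log2 between IL-1Ra and normal and -0.83 log2 between 4NQO and normal. A second Pdk4 probe set gave -0.42, -1.73 and -1.30 log2 in the same order, and on it every 4NQO array was below every normal array. Without the second 4NQO array the Pdk4 difference between 4NQO and normal was -1.25 log2, and without the third array it was -0.51 log2.

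Ucp3 encodes a carrier of the inner mitochondrial membrane in muscle that is known to follow fatty acid supply. Its brightest probe set read 9.58, 7.72 and 8.44 log2 on the IL-1Ra arrays, 8.79, 10.45 and 7.67 on the 4NQO arrays and 10.26, 10.42 and 10.40 on the normal arrays. The 4NQO arrays spread over 2.78 log2 and reached past the normal group at one end and past the IL-1Ra group at the other. The means were 8.58 ± 0.94 for IL-1Ra, 8.97 ± 1.4 for 4NQO and 10.36 ± 0.09 for normal (SD, n = 3 each). The difference between 4NQO and normal was -1.39 log2 with all arrays, -2.13 log2 without the second 4NQO array and -0.74 log2 without the third. The other Ucp3 probe set gave -0.31 log2 between IL-1Ra and 4NQO, -1.39 between IL-1Ra and normal and -1.08 between 4NQO and normal, with the same overlaps.

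**Figure D1:**
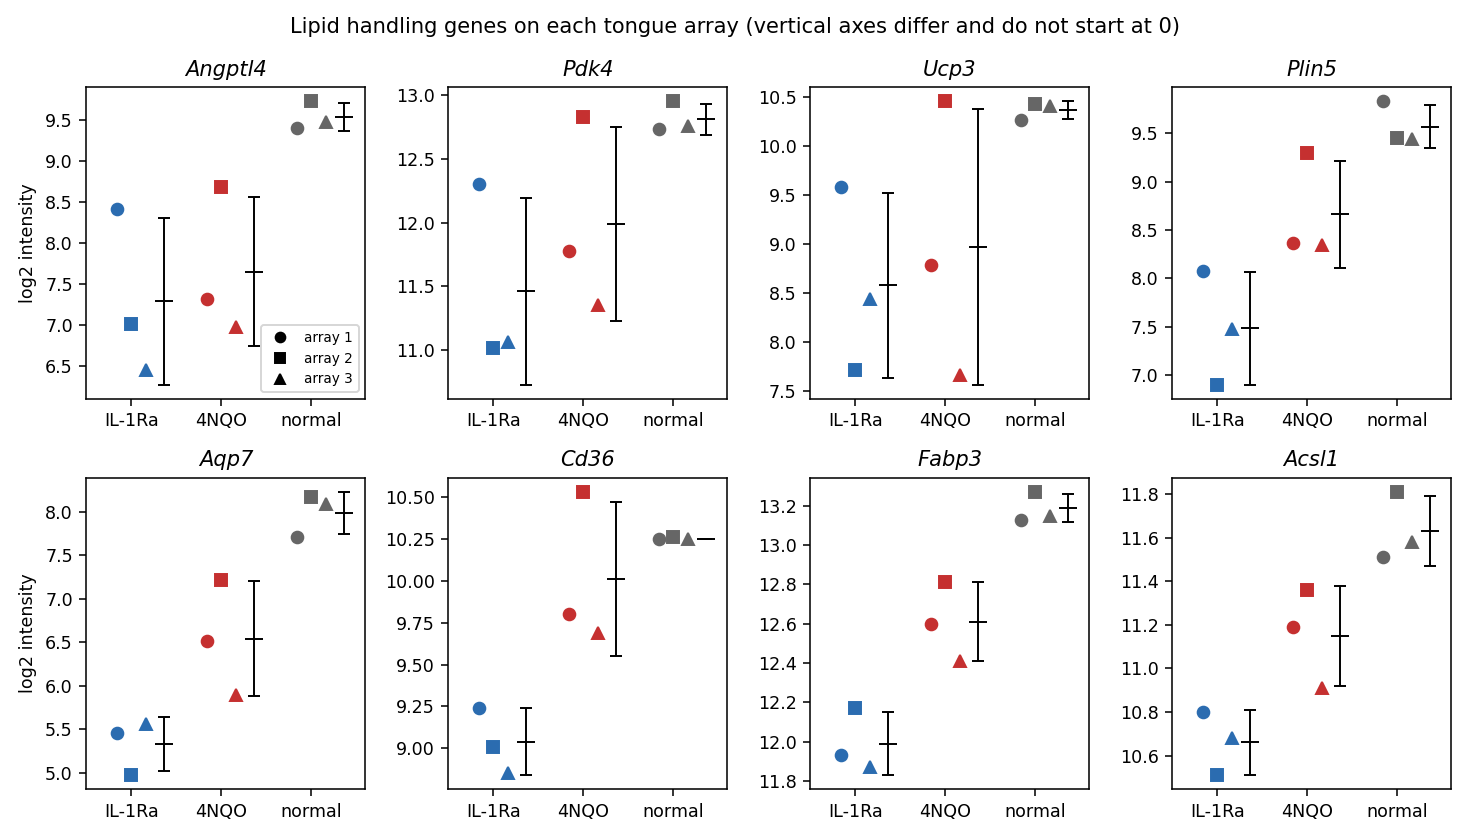
Log2 intensity of the brightest probe set of each gene (vertical axes, which differ between panels and do not start at 0) on the IL-1Ra, 4NQO and normal arrays. Symbols mark arrays 1 to 3 of a group, which are unrelated between groups, and black bars give the mean and SD (n = 3). The normal arrays lie close together in every panel, and Aqp7, Fabp3, Acsl1 and Plin5 show 3 ranges without overlap.

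The IL-1Ra and 4NQO groups were compared to ask whether the antagonist changed the tissue under the carcinogen, and both were set against the normal group. All 8 genes had a negative difference in each comparison. Between IL-1Ra and 4NQO, 2 of the 8, Cd36 and Fabp3, passed an adjusted p of 0.05 as lower, where 0.753% of all genes did so. In 5 of the 8 every IL-1Ra array was below every 4NQO array, against 13.5% of all genes. Between IL-1Ra and normal, 5 of the 8 passed, namely Plin5, Aqp7, Cd36, Fabp3 and Acsl1 (0.542% of all genes), and in 8 of 8 every IL-1Ra array was lower (14.4% of all genes). Between 4NQO and normal, 3 of the 8 passed, namely Angptl4, Aqp7 and Fabp3 (5.08% of all genes), and in 5 of the 8 every 4NQO array was lower (14.8% of all genes). Since the genes were named from these contrasts, nothing is read from the counts. The p-values were adjusted within each comparison, so Angptl4 could pass between 4NQO and normal and not between IL-1Ra and normal although the second difference was larger.

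The median difference of the 8 genes was -0.57 log2 between IL-1Ra and 4NQO, -1.57 between IL-1Ra and normal and -0.87 between 4NQO and normal. Over all 14217 genes the medians were -0.04, 0.04 and 0.08 log2 in the same order. The comparisons share their arrays, and the difference between IL-1Ra and normal is the sum of the other two. The number of genes that passed rested on single arrays. Between IL-1Ra and 4NQO it was 4 without the third 4NQO array, 1 without the first or the second, and 0 without any one of the IL-1Ra or normal arrays. Between IL-1Ra and normal it was 1 without the second IL-1Ra array and 0 without either other IL-1Ra array or any one normal array. Between 4NQO and normal it was 8 without the second 4NQO array, 1 without the first normal array and 0 without the second or the third.

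**Figure D2:**
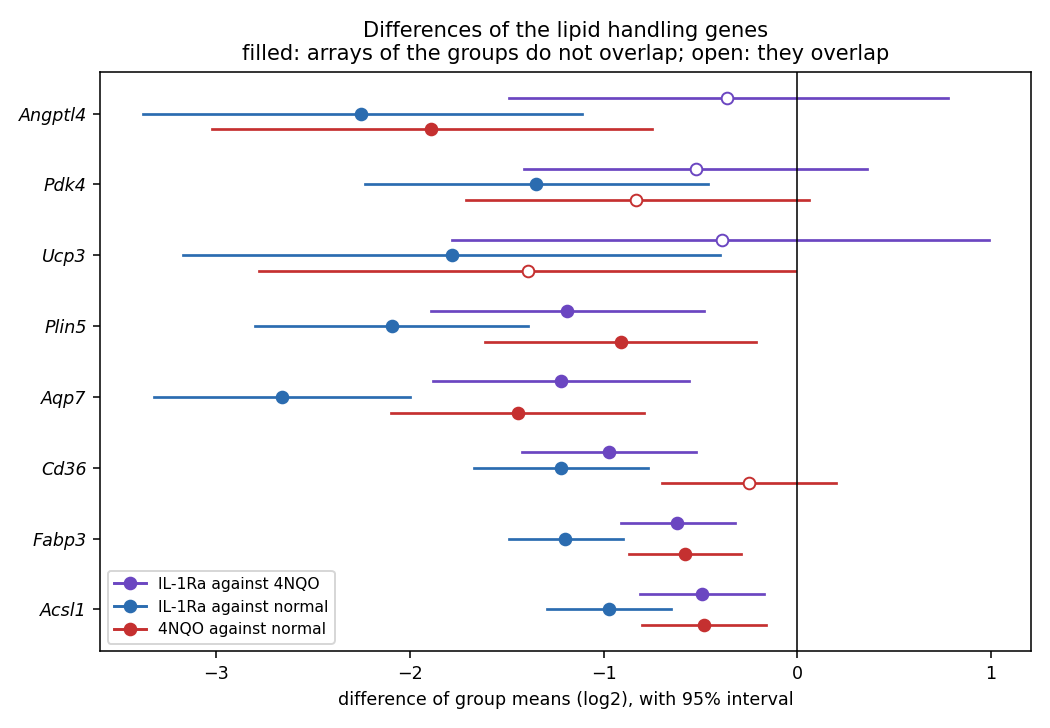
Difference of group means in log2 (horizontal axis) for each gene in the 3 comparisons, with the 95% interval of the limma model as a line. Filled points mark groups whose arrays do not overlap. All points lie below 0, and the intervals of Angptl4, Pdk4 and Ucp3 are the widest.

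The same arrays stood high or low in their group for most of the genes. The second 4NQO array was above the mean of its group for 8 of the 8 genes, and the third was above it for 0. The first IL-1Ra array was above the mean of its group for 7 of the 8 genes, with Fabp3 as the exception. The mean level of the 8 genes was 9.47, 8.66 and 8.80 log2 on the IL-1Ra arrays, 9.54, 10.40 and 9.15 on the 4NQO arrays and 10.60, 10.76 and 10.64 on the normal arrays. The second 4NQO array thus came near the normal arrays, and the first IL-1Ra array came near the first 4NQO array. The deviations were largest for Ucp3, Angptl4 and Pdk4 and smallest for Fabp3 and Acsl1. For Ucp3 the second 4NQO array lay 1.48 log2 above the mean of its group and the third deviated by -1.30, while for Fabp3 the deviations were 0.21 and -0.20. Over the 9 arrays, after each group mean was removed, the 28 pairs of genes had correlations from 0.09 (Plin5 and Fabp3) to 0.97 (Angptl4 and Pdk4), with a median of 0.75. These correlations describe 9 arrays that share tissue composition and RNA handling. Some cell type markers followed this array pattern and others did not. With group means removed, the all-fibre muscle list had a correlation of 0.83 with the 8 genes and the keratinocyte list -0.74. The adipocyte, macrophage and slow-fibre lists had 0.29, -0.29 and 0.01. Lists of related genes, described below, were high as well in part. The lipoprotein lipase system had 0.94, genes responsive to fasting or glucocorticoids 0.86, and receptors with their coregulators 0.84. Mitochondrial oxidation had 0.81, lipid droplet genes 0.70 and peroxisomal and ketone body genes 0.70. Pyruvate dehydrogenase genes had 0.35, uncoupling proteins -0.24, fatty acid transport -0.37 and glycerol genes -0.43. Of all 9 arrays, the second 4NQO array had the highest sum of all-fibre muscle markers (82768 intensity units) and the lowest sums of keratinocyte (28254) and macrophage markers (1397). The third 4NQO array had the highest keratinocyte sum (55217) and, within its group, the lowest muscle sum (64813). Macrophage sums were 4303 on the first and 2199 on the third 4NQO array. The first IL-1Ra array had the highest muscle sum of its group (66970), close to that of the third (66158). Its keratinocyte sum (48695) lay between those of the second (52435) and the third (48096). The part of tissue composition, or of what the related lists respond to, in the array pattern was not tested.

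**Figure D3:**
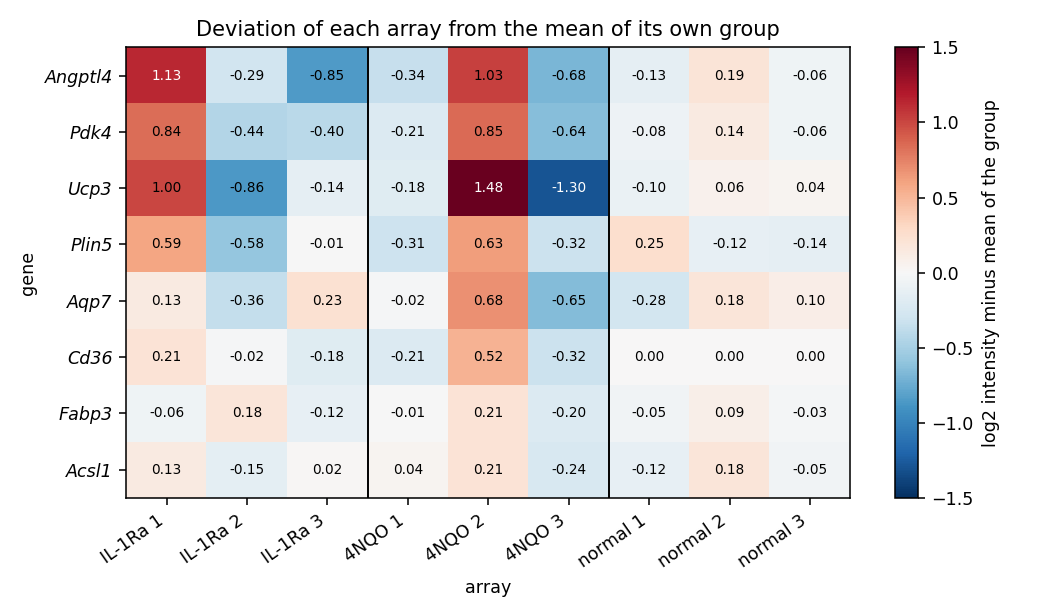
Log2 intensity of each gene (rows) on each array (columns) minus the mean of that array's own group, written in each cell. The column of the second 4NQO array is positive for all 8 genes and that of the third is negative for all 8, while the normal columns stay close to 0.

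Relatives of the 8 genes in the same families differed in both directions. Among perilipins, Plin2, which coats droplets in most cells, averaged 8.08 ± 0.50 log2 in the IL-1Ra group, 8.48 ± 0.49 in the 4NQO group and 9.22 ± 0.23 in the normal group, and every array of either treated group was below every normal array. Its differences of -1.14 between IL-1Ra and normal and -0.74 between 4NQO and normal did not pass (limma adjusted p = 0.0656 and 0.101). Plin3, a droplet coat found in most cells, rose instead by 0.89 log2 between 4NQO and normal and by 0.75 between IL-1Ra and normal (adjusted p = 0.00649 and 0.0405). Plin4 differed by -0.90 log2 and Plin1, a perilipin of fat cells, by 0.78 log2 between IL-1Ra and normal, and neither passed. Fabp4, the binding protein of fat cells and capillary endothelium, fell by 1.11 log2 between IL-1Ra and normal (adjusted p = 0.0376). Fabp5, the epidermal form, differed by 0.45 log2 in that comparison and did not pass.

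Of the other acyl-CoA synthetases, Acsl5 rose by 0.89 log2 between IL-1Ra and normal and by 0.67 between 4NQO and normal (adjusted p = 0.0434 and 0.0276). Acsbg1, an acyl-CoA synthetase of a separate subfamily, rose by 1.07 log2 between IL-1Ra and 4NQO (adjusted p = 0.0351) and fell by 1.15 log2 between 4NQO and normal (adjusted p = 0.0111). Acsl3, Acsl4 and Acsl6 differed by -0.33, -0.59 and 0.35 log2 between IL-1Ra and normal without passing. Among the fatty acid transport proteins, Slc27a1, the form of muscle and fat, differed by -0.83 log2 between IL-1Ra and 4NQO and by -0.93 between IL-1Ra and normal, with no overlap of arrays in either (adjusted p = 0.175 and 0.112). Slc27a3 rose by 0.98 log2 between 4NQO and normal (adjusted p = 0.013), and Slc27a4 differed by 0.75 log2 between IL-1Ra and 4NQO (adjusted p = 0.0563). The kinases Pdk1, Pdk2 and Pdk3 differed between IL-1Ra and normal by 0.02, -0.12 and 0.77 log2 and did not pass in any comparison. Ucp2 did not pass either, and Ucp1, the uncoupling protein of brown fat, lay below the lower quartile on all 9 arrays. The aquaglyceroporins Aqp3 and Aqp9 differed by 0.97 and 0.75 log2 between IL-1Ra and 4NQO, opposite in sign to Aqp7, with overlapping arrays.

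Of the 3 PPARs, only Pparg passed in any comparison, and it was higher in 4NQO than in normal. Ppara, the form that drives fat oxidation in liver and muscle, read 3.61 ± 0.35 log2 in the IL-1Ra group, 3.82 ± 0.21 in the 4NQO group and 3.66 ± 0.11 in the normal group, close to the lower quartile of the arrays. Ppard, the form prominent in muscle, read 7.62 ± 0.18, 7.64 ± 0.33 and 7.49 ± 0.06 log2 in the same order (SD, n = 3 each), and its groups overlapped. Pparg, the regulator of fat cell formation, rose by 0.97 log2 between 4NQO and normal (adjusted p = 0.0265) and differed by -0.40 log2 between IL-1Ra and 4NQO (adjusted p = 0.403). Together with Nrip1, a corepressor (0.82 log2, adjusted p = 0.00562), and Med1, a Mediator subunit (0.44 log2, adjusted p = 0.0311), it made 3 of 18 measured receptors and coregulators higher in 4NQO than in normal, against 12.4% of all genes. Between IL-1Ra and 4NQO and between IL-1Ra and normal, 0 of the 18 passed in either direction by limma, where 1.91% and 1.66% of all genes were higher. At an unadjusted p under 0.05 limma gave 4 and 5 of the 18, and an unmoderated equal-variance test gave 3 and 4. The share of all genes at that threshold was not computed.

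Over 10 lists of related genes with 128 measured members, 2 were lower and 4 higher between IL-1Ra and 4NQO, 6 lower and 3 higher between IL-1Ra and normal, and 2 lower and 11 higher between 4NQO and normal. Over all genes the shares were 0.753% lower and 1.91% higher between IL-1Ra and 4NQO, 0.542% and 1.66% between IL-1Ra and normal, and 5.08% and 12.4% between 4NQO and normal. The median differences of the related genes were -0.22, -0.12 and 0.03 log2 in that order. The lipoprotein lipase system had 1 of 6 lower between IL-1Ra and normal (0.542% of all genes), which was Lpl itself, and 1 of 6 higher between 4NQO and normal (12.4% of all genes). The second was Lmf2, a relative of the factor that matures lipases, which rose by 0.56 log2 (adjusted p = 0.0213). Lpl read 11.32 ± 0.07 log2 in the IL-1Ra group, 11.91 ± 0.23 in the 4NQO group and 12.25 ± 0.24 in the normal group, and it fell by 0.93 log2 between IL-1Ra and normal (adjusted p = 0.0362). Gpihbp1, which anchors the enzyme to capillaries, differed by -0.94 log2 between IL-1Ra and 4NQO (adjusted p = 0.183).

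The 20 genes of mitochondrial fatty acid entry and oxidation had a median of -0.40 log2 between IL-1Ra and 4NQO, -0.42 between IL-1Ra and normal and -0.09 between 4NQO and normal. Between IL-1Ra and normal 20 of 20 differences were negative (6233 of all 14217 genes), in 15 every IL-1Ra array was lower (14.4% of all genes), and 3 passed as lower (0.542% of all genes). These were Etfdh (-1.0 log2, adjusted p = 0.0354) and Etfa (-0.50, adjusted p = 0.0475), which pass electrons from acyl-CoA dehydrogenases to the respiratory chain, and Eci1 (-0.86, adjusted p = 0.0478), an enoyl-CoA isomerase. Cpt1b, the carnitine palmitoyltransferase of muscle, differed by -0.76 log2 between IL-1Ra and 4NQO and did not pass (adjusted p = 0.0906). Between 4NQO and normal 0 of the 20 passed by limma, against 5.08% of all genes lower and 12.4% higher. At an unadjusted p under 0.05 limma gave 5 and the unmoderated test gave 3, with no share of all genes computed. In 4 of the 20 every 4NQO array was lower, against 14.8% of all genes, and none of these differed by more than 0.45 log2 in size.

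Of 14 measured peroxisomal, ketone body and other PPAR alpha targets, Hsd17b4, an enzyme of peroxisomal oxidation, fell by 0.47 log2 between IL-1Ra and 4NQO (adjusted p = 0.0432), and Acot2, a mitochondrial acyl-CoA thioesterase, fell by 1.13 log2 between IL-1Ra and normal (adjusted p = 0.044). That was 1 of 14 lower in each of these comparisons, against 0.753% and 0.542% of all genes, and the other 12 passed in no comparison. Lipid droplet genes moved in both directions. Of 18 measured, 3 were higher between IL-1Ra and 4NQO and 2 between IL-1Ra and normal, against 1.91% and 1.66% of all genes. Between 4NQO and normal 1 was lower and 1 higher, against 5.08% and 12.4% of all genes. Abhd5, the coactivator of the lipase Pnpla2, rose by 0.79 log2 between IL-1Ra and 4NQO, and so did Dgat2, which makes triglycerides (0.66 log2), and Pnpla3 (1.57 log2), with adjusted p of 0.0154, 0.0158 and 0.0212. Dgat2 also rose by 0.56 log2 between IL-1Ra and normal (adjusted p = 0.044), and Pnpla3 fell by 1.09 log2 between 4NQO and normal (adjusted p = 0.0304). Of 15 measured genes responsive to fasting or glucocorticoids, 4 were higher between 4NQO and normal, against 12.4% of all genes. Sgk1, Per1, Irs2 and Klf9 rose there by 1.28, 1.16, 0.72 and 0.68 log2 (adjusted p of 0.014, 0.0142, 0.0138 and 0.0145). Klf9 fell by 0.83 log2 between IL-1Ra and 4NQO (adjusted p = 0.0163), as 1 of 15 lower against 0.753% of all genes.

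**Figure D4:**
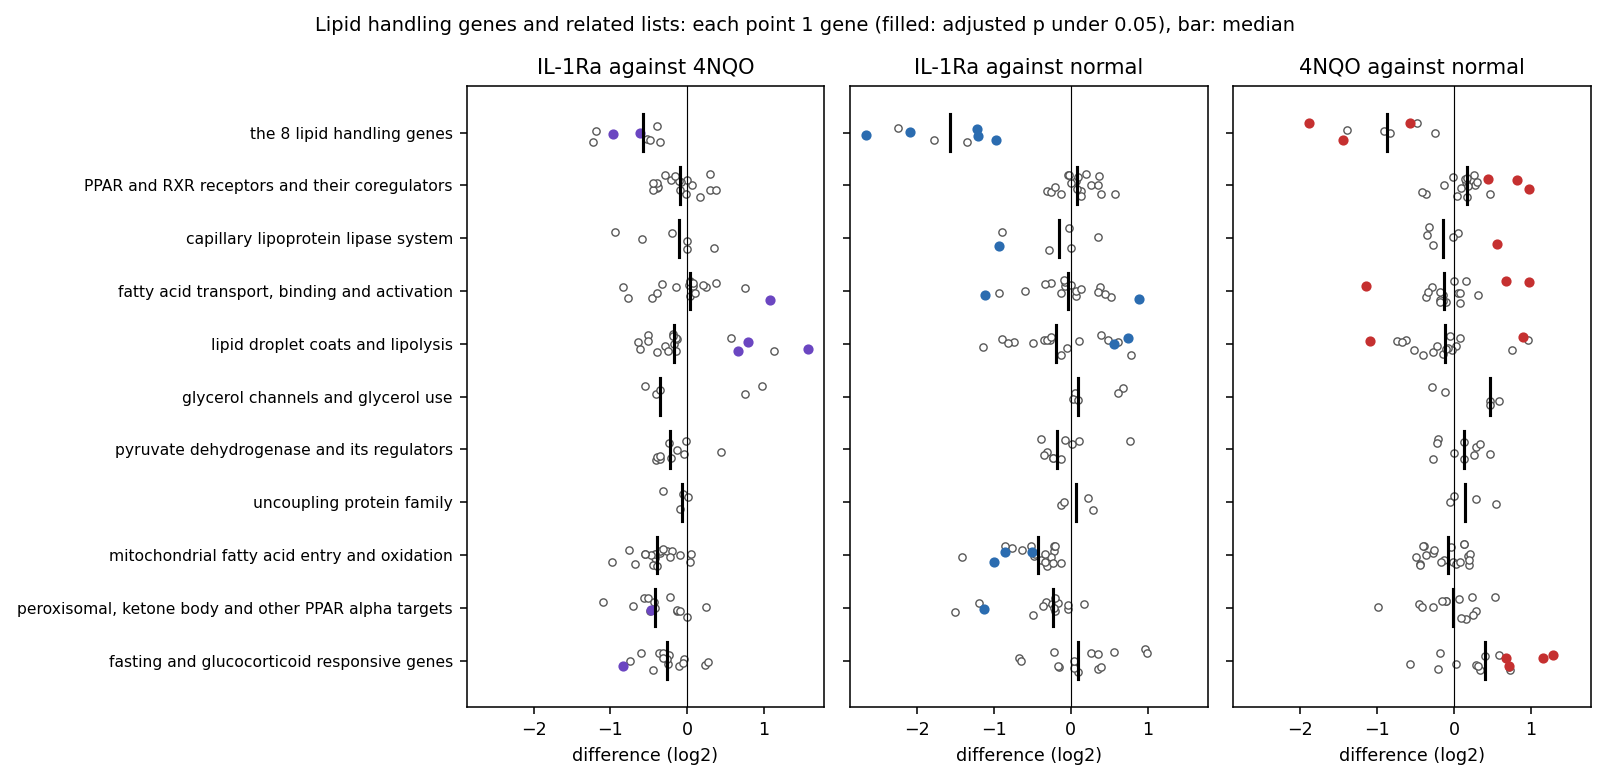
Difference of group means in log2 (horizontal axes) for the 8 lipid handling genes and for 10 lists of related genes (rows), with 1 point a gene, filled where the adjusted p was under 0.05, and a bar at the median. The 8 genes lie to the left of 0 in all 3 panels, and the oxidation list lies to the left of 0 between IL-1Ra and normal.

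The genes whose levels over the 9 arrays were most like the mean of the 8, each first scaled to its own spread, were sought among 9807 genes above the median brightness. They were Nudt7, a peroxisomal hydrolase of coenzyme A (r = 0.98), Pik3ca, the catalytic subunit of a phosphoinositide kinase (r = 0.98), and Iqce, the mitochondrial glutamate carrier Slc25a22 and the mitochondrial ribosomal protein Mrpl34 (r = 0.97 each). The 9 arrays fall into 3 groups, so these values contain the group differences, and with group means removed they were 0.87 to 0.94. Nudt7 read 7.84, 7.61 and 7.71 log2 on the IL-1Ra arrays, 8.30, 9.24 and 8.09 on the 4NQO arrays and 9.26, 9.48 and 9.60 on the normal arrays. It repeated the high second 4NQO array and the order of the groups seen in Aqp7. Pik3ca followed the same order over a smaller span, with means of 8.55, 8.84 and 9.15 log2 in the IL-1Ra, 4NQO and normal groups.

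Markers of the cell types that express these genes moved with them in part. The 8 slow-fibre muscle markers had medians of -0.99 log2 between IL-1Ra and 4NQO, -1.5 between IL-1Ra and normal and -0.20 between 4NQO and normal, with 4, 5 and 0 of 8 lower by limma, against 0.753%, 0.542% and 5.08% of all genes. At an unadjusted p under 0.05 limma gave 2 of the 8 between 4NQO and normal and the unmoderated test gave 0. The share of all genes at that threshold was not computed. The summed intensity of the slow-fibre markers was 1585 to 2125 in the IL-1Ra group, 3243 to 4638 in the 4NQO group and 3565 to 6325 in the normal group. Csrp3 and Atp2a2 were the brightest of these markers and weigh most in the sums. Myh7, the slow myosin heavy chain, averaged 3.27 log2 in the IL-1Ra group, 4.19 in the 4NQO group and 4.17 in the normal group. It was dim, and it lay below the lower quartile on 2 IL-1Ra arrays and 1 4NQO array. The slow-fibre sums thus separated IL-1Ra from both other groups and overlapped between 4NQO and normal. The mean level of the 8 genes overlapped between IL-1Ra and 4NQO, as Angptl4, Pdk4 and Ucp3 did. Plin5, Aqp7, Cd36, Fabp3 and Acsl1 separated IL-1Ra from 4NQO, as the slow-fibre sums did. With group means removed, the mean of the slow-fibre list had a correlation of 0.01 with the 8 genes over 9 arrays. It was 0.83 for the all-fibre muscle list, 0.69 for the fast-fibre list and -0.74 for the keratinocyte list. With the group differences kept, the correlations were 0.76, 0.60, 0.49 and -0.78 in the same order of lists. The 10 fast-fibre markers had medians of -0.13, -0.13 and 0.01 log2 in the same order of comparisons.

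The 9 measured adipocyte markers had medians of -0.30 log2 between IL-1Ra and 4NQO, 0.11 between IL-1Ra and normal and 0.42 between 4NQO and normal. They summed to 1473 to 2523 intensity units in the IL-1Ra group, 2239 to 2983 in the 4NQO group and 2574 to 2987 in the normal group. Fabp4, which other cells express as well, was the brightest of these markers and weighs most in the sums. It averaged 9.77, 10.54 and 10.88 log2 in the IL-1Ra, 4NQO and normal groups and was the one marker that passed. Adipoq, the fat cell hormone adiponectin, averaged 6.42, 6.78 and 6.14 log2 in that order of groups. Between IL-1Ra and normal, 4 of the 9 markers had negative differences, while Adipoq, Plin1, Cidec and Cfd differed by 0.28, 0.78, 0.11 and 0.26 log2. The 9 measured endothelial markers, which bear on Cd36, had medians of -0.52 log2 between IL-1Ra and 4NQO, 0.28 between IL-1Ra and normal and 0.76 between 4NQO and normal. By limma 0 of the 9 passed between IL-1Ra and either other group. Between 4NQO and normal 4 passed as higher (12.4% of all genes). In 7 every 4NQO array was higher there (3771 of all 14217 genes). The endothelial markers summed to 1581 to 1899, 2052 to 2846 and 1604 to 1731 intensity units in the IL-1Ra, 4NQO and normal groups. The 10 measured macrophage markers, another source of Cd36, had medians of 0.79, 0.20 and -0.47 log2 in the same order of comparisons. They summed to 3644 to 5624 intensity units in the IL-1Ra group, 1397 to 4303 in the 4NQO group and 2732 to 4697 in the normal group. The part of these cell types in the levels of the 8 genes was not tested.

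RNA quality was read as the log2 excess of 3′ over 5′ control probe sets. For beta-actin it was 0.98 to 1.27 in the IL-1Ra group, 1.07 to 1.29 in the 4NQO group and 0.74 to 0.86 in the normal group, and for hexokinase 1.80 to 2.20, 1.29 to 1.78 and 1.47 to 1.53 in that order of groups. For GAPDH it was 0.26 to 0.28, 0.31 to 0.43 and 0.23 to 0.30. Beta-actin thus separated the normal group from both others, hexokinase separated IL-1Ra from both others, and GAPDH separated 4NQO from both others. The part of RNA quality in the differences was not tested. The 8 genes were also set against the mean of the 10 all-fibre muscle markers on the same array. This scaling was chosen after the data were seen. With it the 8 genes had medians of -0.33 log2 between IL-1Ra and 4NQO, -1.42 between IL-1Ra and normal and -0.96 between 4NQO and normal. All 8 differences were negative in each comparison. The 10 markers themselves had medians of -0.16, -0.16 and 0.09 log2 in that order, and no scaling to the slow-fibre markers was made. The part of muscle content in the differences was not tested. On the all-fibre scale every 4NQO array was below every normal array for 7 of the 8 genes. Cd36 was the exception and differed by -0.34 log2 between 4NQO and normal. The share of all genes on that scale was not computed, so nothing is read from the count. Angptl4, Pdk4 and Ucp3 still overlapped between IL-1Ra and 4NQO, with differences of -0.11, -0.28 and -0.15 log2.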

How the data were processed

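RNA of 9 tongue samples was hybridised to 1 array each. Affymetrix Expression Console and RMA are the tools given in the submitters' processing notes, without versions. The authors deposited linear intensity values, 1 for each probe set on each array, that RMA had corrected for background and normalized between arrays, and log2 was taken of each. This normalization can hide a change shared by most genes. Of 31099 probe sets, 57 controls were left out. The platform annotation, which can be old, gave 20826 of the others 1 gene symbol, 436 several and 9780 none. The probe set with the highest mean stood for a gene.

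Groups came from the treatment labels. Group means were compared with limma 3.58.1 in R 4.3.3, in 1 model over 31042 probe sets and 9 arrays, with 6 residual and 4.01 prior degrees of freedom, two-sided tests and Benjamini-Hochberg adjustment at 0.05 within each comparison. The code was tested on simulated data. The 8 genes and the lists of related genes and markers were chosen with earlier results of these data known. Named beside the 8 were PPARs, family relatives, up to 4 called genes of a list by adjusted p, and the 5 genes most like the 8. Other scalings, filters, variance models, tests, probe set choices and leaving out each array were tried. With 3 arrays a group, precision is limited.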

Additional observations from a re-analysis of the deposited data

How the results depend on the processing

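Alternatives that change only the test, the variance model or the filter repeat the same difference of means. So does leaving out an array of the group not compared. The 8 genes were also selected on these differences, so a count of signs is a description only. Of 492 differences of single genes among the 8 computed under the alternatives, such repeats included, 488 were negative. The other 4 belong to Angptl4 and Ucp3 between IL-1Ra and 4NQO, where leaving out 1 array gave -0.92 to 0.15 log2 and -1.04 to 0.35 log2. They were 0.15 and 0.35 log2 without the second 4NQO array, 0.06 for Angptl4 without the third IL-1Ra array and 0.04 for Ucp3 without the second. The median difference of the 8 genes ranged with 1 array left out from -0.94 to -0.45 log2 between IL-1Ra and 4NQO, from -2.03 to -1.32 between IL-1Ra and normal and from -1.24 to -0.62 between 4NQO and normal. Counts of calls moved far more, and the cause was not tested.

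Between IL-1Ra and 4NQO, 2 of the 8 genes passed, against 1 after a new quantile normalization, 0 with only the 6 arrays compared, 1 by an unmoderated equal-variance test with an unadjusted p of 0.05 and a fold of 2, 0 by that test with Benjamini-Hochberg adjustment and 0 to 4 with 1 array left out. Of the related genes 6 passed, against 2 with 6 arrays, 2 by the unmoderated test with the fold of 2, 0 with adjustment and 0 to 23 with 1 array left out. Of all probe sets 722 passed, against 195, 357, 0 and 184 to 2353 under the same settings.

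Between IL-1Ra and normal, 5 of the 8 passed, against 8 with array weights, 8 with only the 6 arrays, 8 by the unmoderated test with a fold of 1.5, 0 by that test with adjustment and 0 to 7 with 1 array left out. Of the related genes 9 passed, against 31 with weights, 3 after cyclic loess, 3 after quantile normalization, 32 with 6 arrays, 21 by the unmoderated test with the fold of 1.5, 0 with adjustment and 0 to 21 with 1 array left out. Of all probe sets 581 passed, against 3556 with weights, 97 after cyclic loess, 203 after quantile normalization, 2714 with 6 arrays, 1391 and 195 by the unmoderated test with folds of 1.5 and 2, 109 with adjustment and 0 to 2084 with 1 array left out.

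Between 4NQO and normal, 3 of the 8 passed, against 0 by the unmoderated test with adjustment and 0 to 8 with 1 array left out. Of the related genes 13 passed, against 20 with the most variable probe set of each gene, 3 by the unmoderated test with the fold of 2, 0 with adjustment and 4 to 20 with 1 array left out. Of all probe sets 4610 passed, against 2480 after cyclic loess, 2821 after quantile normalization, 2249 and 452 by the unmoderated test with folds of 1.5 and 2, 1 with adjustment and 851 to 4417 with 1 array left out. No paired analysis was possible because the labels give no replicate numbers shared between the groups.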
